A study of Mus musculus with 12 samples.

Results

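Genes of the cell division cycle and of DNA replication were followed in bone marrow-derived dendritic cells (BMDC), antigen-presenting cells grown from marrow precursors with the cytokine GM-CSF. Of 47 listed genes, 46 were measured by a probe set annotated with their symbol alone, out of 22180 genes measured in that way. Ccne2 was carried by 1 probe set that names several genes and was left out, and Rrm2, which had 2 probe sets, was represented by the brighter one. The study compared cells of Arc/Arg3.1 -/- mice, which lack the activity-regulated gene Arc, with cells of Arc/Arg3.1 +/+ mice, called knockout and wildtype here. All animals had a C57BL/6 strain background, were labelled male and were 8 weeks old. The GM-CSF dose was 20 ng/ml, and semi-adherent cells were taken after 7 days of culture. Cells of each genotype then received lipopolysaccharide (LPS, an endotoxin of Gram-negative bacteria sensed through Toll-like receptor 4) at 100 ng/ml or medium for 30 min, followed by washing and 1 h in medium. Each of the 4 groups had 3 arrays, labelled biological replicates 1, 2 and 3, and the labels do not say whether the cultures came from separate animals.

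A dividing cell copies its DNA in S phase and separates the copies in mitosis. The transcripts of both phases are switched off in resting cells by repressor complexes of the retinoblastoma family and are switched on by E2F factors before S phase and by the MuvB complex with B-Myb and FoxM1 before mitosis. In GM-CSF cultures of marrow, proliferating precursors give rise to dendritic cells and macrophages that divide little, so the level of these transcripts in a culture depends on how many cells are still cycling. Because RNA of whole cultures was measured, a larger share of dividing cells and more of these transcripts per dividing cell cannot be told apart.

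Signals are log2 values as deposited, and values on the arrays of a group are given in the order of replicates 1, 2 and 3. Arc separated the genotypes: over both treatments it was 2.80-fold lower in knockout cells (log2 -1.49, SE 0.12, adjusted p = 0.0015 in limma). All 9 measured dendritic markers exceeded, on every array, the median signal of unannotated probe sets (5.89 to 6.10), with Itgax, which encodes CD11c, at 10.25 to 11.49 and the MHC class II gene H2-Ab1 at 13.37 to 13.55. Of the 46 cell cycle genes, 44 were above that median on all 12 arrays. The exceptions were Cenpk, above it on 9 arrays, and Birc5, above it on 11. The 3 untreated wildtype arrays were closer to each other than any other arrays of a group: over 6440 genes with a mean signal above 8, the SD of their pairwise differences was 0.105 to 0.108, against 0.193 to 0.438 for the 9 other pairs. Their mean was therefore counted as 1 sample. The female-specific transcript Xist was above the Y-linked genes on 9 arrays, against the label. The reverse was found on replicate 2 of both knockout groups and on replicate 1 of LPS-treated wildtype cells. The median signal of 70 small nucleolar RNA genes was lower on replicates 2 and 3 of both LPS groups (9.73 to 9.87) than on the other 8 arrays (10.44 to 11.05).

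The largest variation of the cell cycle genes was between arrays of the same group. The array numbered 2 had the highest signal of its group for 46 of 46 genes in untreated knockout cells, for 46 of 46 in LPS-treated knockout cells and for 44 of 46 in LPS-treated wildtype cells. Among all 22180 genes, the same held for 36.9%, 34.9% and 31.6%. In all 3 of these groups together, replicate 2 was highest for 44 of 46 cell cycle genes and for 9.12% of all genes, and the exceptions were E2f1 and Cenpa. For 23 of 46 genes, replicate 2 exceeded both other arrays by at least 0.5 in each of the 3 groups, which 0.392% of all genes did. The median excess of replicate 2 over the mean of replicates 1 and 3 was 0.79 in untreated knockout cells, 0.98 in LPS-treated knockout cells and 0.69 in LPS-treated wildtype cells. In untreated wildtype cells it was 0.07, and replicate 2 was highest there for 26 of 46 genes (35.3% of all genes). Replicate 2 was the highest array of all 4 groups for 25 of 46 genes (4.07% of all genes).

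**Figure D1:**
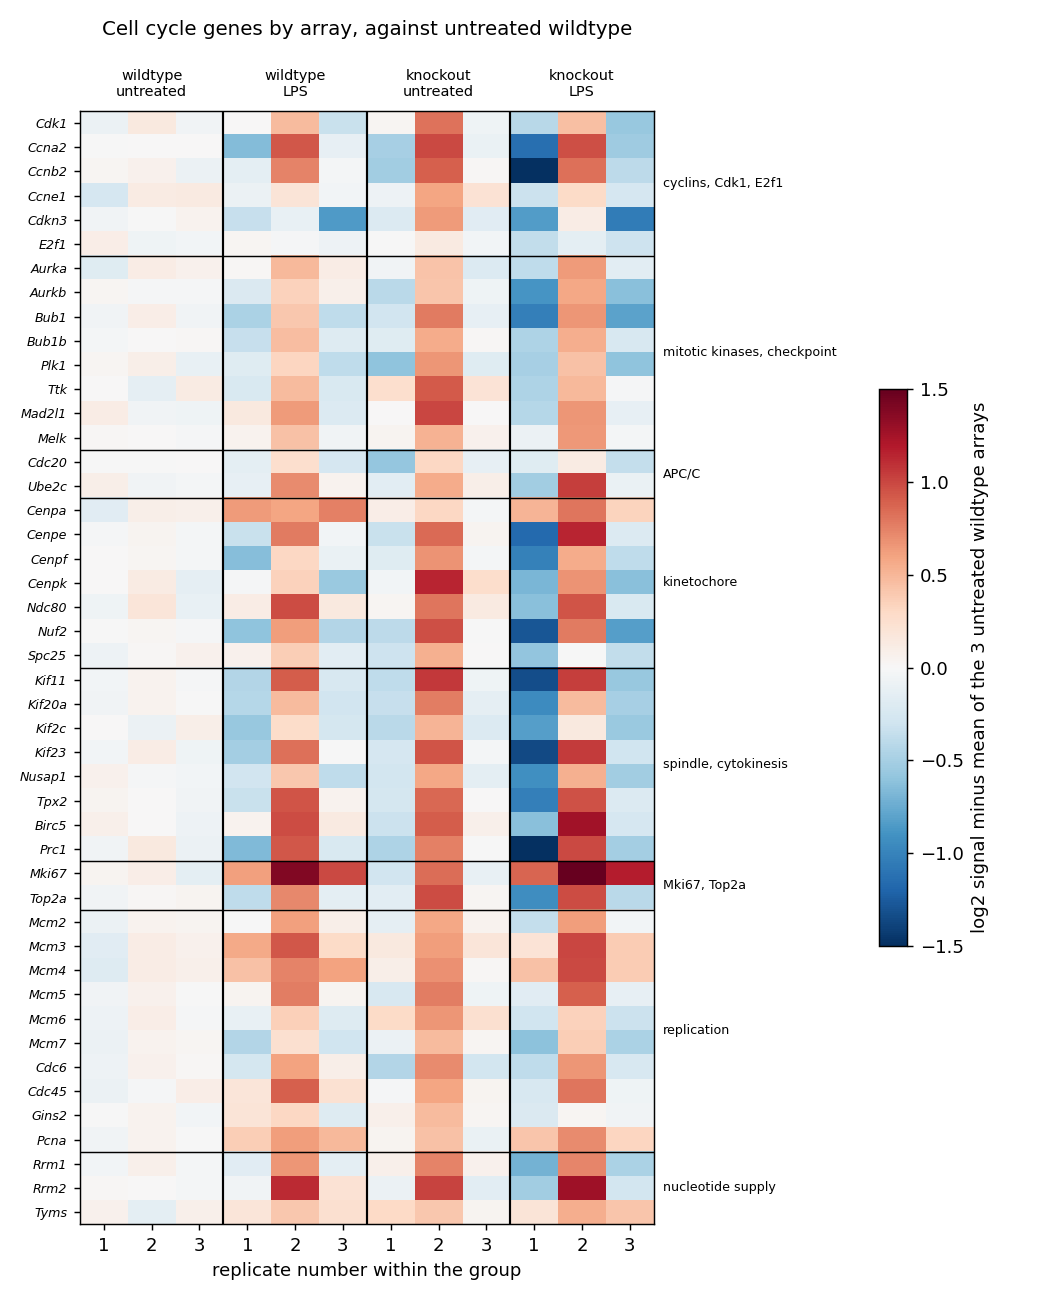
Log2 signal of the 46 cell cycle genes (rows, grouped by role) on the 12 arrays (columns), shown as the difference from the mean of the 3 untreated wildtype arrays, with red for higher and blue for lower. The columns of replicate 2 are red in the 3 groups other than untreated wildtype, where all 3 columns are near white, and Mki67 is red on all 6 LPS arrays.

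The median signal of the 46 genes moved accordingly. It was 7.80, 8.59 and 8.00 on the untreated knockout arrays, 7.28, 8.61 and 7.62 on the LPS-treated knockout arrays, 7.70, 8.43 and 7.80 on the LPS-treated wildtype arrays, and 8.02, 7.99 and 7.98 on the untreated wildtype arrays. The lowest array was replicate 1 of the LPS-treated knockout cells, which had the lowest signal of its group for 38 of 46 genes (35% of all genes). The exceptions were Cdk1, Cdkn3, Plk1, Cdc20, Cenpa, Mcm4, Mcm6 and Pcna. The SD pooled over these 3 groups of 3 arrays had a median of 0.525 among the cell cycle genes and of 0.166 among all genes, and 39 of the 46 were among the 10% of genes with the highest pooled SD. Over the 3 untreated wildtype arrays, the median SD was 0.0761 against 0.101 for all genes. When the 3 arrays numbered 2 were left out, a setting added after the values were seen, the median pooled SD of the cell cycle genes was 0.179, against 0.525 with them.

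Untreated and LPS-treated knockout replicate 2 carried Y-linked signal, and LPS-treated wildtype replicate 2 did not. Replicates 2 of both LPS groups had the lower small nucleolar RNA signal, and untreated knockout replicate 2 did not. The labels do not state what a replicate number stands for, and the part of each of these properties in the spread of the cell cycle genes was not tested.

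Differences between the replicate numbers were put to a limma F-test over the 9 arrays of the 3 groups, a test chosen after the pattern had been seen. They passed for 34 of 46 cell cycle genes at an adjusted p under 0.05, against 379 of all genes (1.71%). The 12 genes that did not pass were Ccne1, E2f1, Aurka, Aurkb, Cdc20, Cenpa, Spc25, Mcm3, Mcm4, Gins2, Pcna and Tyms. With the replicate number as a block, the median residual SD of the cell cycle genes was 0.176 in place of 0.525, while that of all genes was 0.144 in place of 0.166. The genes of the spindle and of cytokinesis had a median excess on replicate 2 of 1.00, 1.64 and 0.98 in untreated knockout, LPS-treated knockout and LPS-treated wildtype cells. The genes of DNA replication had medians of 0.55, 0.77 and 0.55.

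**Figure D2:**
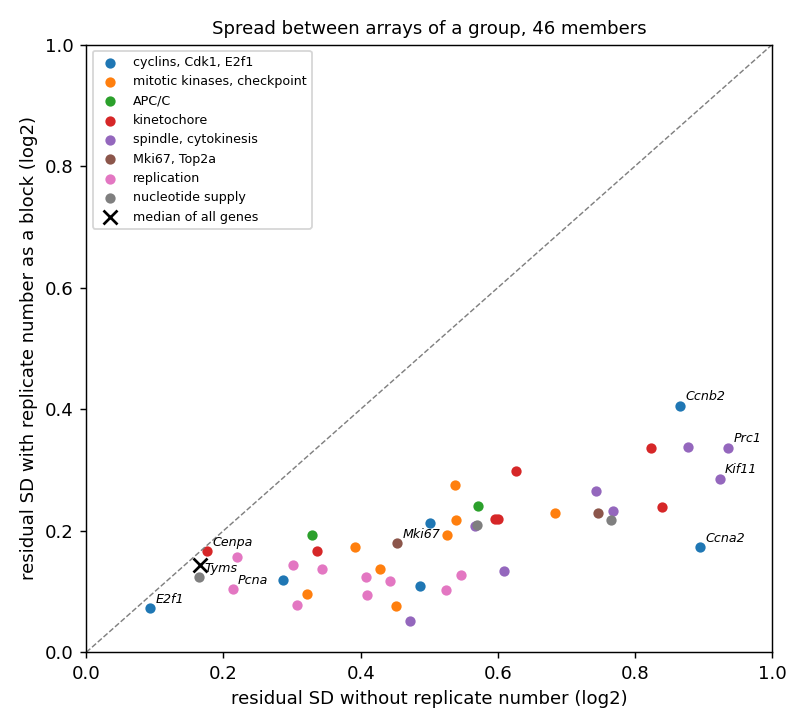
Residual SD of each cell cycle gene (points, coloured by role) over the 10 counted samples without the replicate number (horizontal axis, log2) and with the replicate number as a block (vertical axis, log2), with the median of all 22180 genes as a cross and equal values on the dashed line. The gene farthest to the right is Prc1 at 0.935, the one farthest to the left is E2f1 at 0.0925, and the median of the 46 genes is 0.525 without the block and 0.176 with it.

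Start regions are shown for 5 genes, of which 4 had replicate 2 as the highest array of the 3 groups and Cenpa did not, together with the letters of motifs known from cell cycle promoters. The window of E2f1, the other exception, held none of the 3 motifs searched and is not printed. Windows of 250 bases before to 50 bases after the annotated start were taken from RefSeq (build GRCm38.p6) for 40 of the 46 genes and for 27025 genes in all. The windows shown are chr7:80294201-80294500 (plus strand) for Prc1, chr19:37376132-37376431 (plus strand) for Kif11, chr10:69352863-69353162 (minus strand) for Cdk1, chr7:135716330-135716629 (minus strand) for Mki67 and chr5:30666636-30666935 (plus strand) for Cenpa. Prc1 and Kif11 had the highest pooled SD of the 46 genes, Cdk1 holds all 3 motifs, and Mki67 and Cenpa had a higher mean signal after LPS. Each sequence is written 5′ to 3′ on the strand of its gene, and capitals mark the matches.
Prc1: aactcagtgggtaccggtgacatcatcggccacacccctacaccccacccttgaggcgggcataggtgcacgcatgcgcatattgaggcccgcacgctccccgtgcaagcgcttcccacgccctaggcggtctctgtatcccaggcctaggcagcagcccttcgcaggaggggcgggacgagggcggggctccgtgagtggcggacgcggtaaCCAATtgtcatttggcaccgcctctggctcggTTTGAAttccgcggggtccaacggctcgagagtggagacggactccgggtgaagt
Kif11: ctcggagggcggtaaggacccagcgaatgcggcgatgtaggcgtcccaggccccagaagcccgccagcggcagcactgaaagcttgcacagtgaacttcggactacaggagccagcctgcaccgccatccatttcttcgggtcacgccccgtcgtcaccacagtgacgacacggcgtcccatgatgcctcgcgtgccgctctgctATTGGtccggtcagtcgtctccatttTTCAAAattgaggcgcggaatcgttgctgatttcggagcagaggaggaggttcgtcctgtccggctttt
Cdk1: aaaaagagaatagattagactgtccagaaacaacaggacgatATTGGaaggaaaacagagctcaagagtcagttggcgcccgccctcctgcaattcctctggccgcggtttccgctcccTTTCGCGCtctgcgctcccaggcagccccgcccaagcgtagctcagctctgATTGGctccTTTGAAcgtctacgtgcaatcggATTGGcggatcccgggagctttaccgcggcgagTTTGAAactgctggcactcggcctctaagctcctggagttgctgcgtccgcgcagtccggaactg
Mki67: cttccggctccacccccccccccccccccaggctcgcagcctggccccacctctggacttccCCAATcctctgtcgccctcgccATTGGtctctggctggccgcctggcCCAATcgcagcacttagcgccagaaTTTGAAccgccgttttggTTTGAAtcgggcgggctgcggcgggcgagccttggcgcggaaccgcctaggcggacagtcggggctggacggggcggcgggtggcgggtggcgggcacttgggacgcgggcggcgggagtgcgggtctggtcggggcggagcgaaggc
Cenpa: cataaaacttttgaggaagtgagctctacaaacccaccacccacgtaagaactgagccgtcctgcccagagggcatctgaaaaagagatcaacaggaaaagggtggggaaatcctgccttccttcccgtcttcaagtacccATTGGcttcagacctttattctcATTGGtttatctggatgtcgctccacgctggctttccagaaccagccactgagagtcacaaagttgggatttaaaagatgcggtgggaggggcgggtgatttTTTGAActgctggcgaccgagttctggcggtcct

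The letters TTTGAA or TTCGAA, the core of the cell cycle genes homology region that MuvB complexes bind, were searched on both strands. They were found in 23 of 40 windows of cell cycle genes (57.5%) and in 19.4% of all windows. In Prc1 the match begins 5 bases before the annotated start, in Kif11 it lies 19 bases before it on the other strand (TTCAAA as printed), in Cdk1 there are matches 71 and 15 bases before the start, and in Mki67 116 and 98 bases before it. In Cenpa the match begins at base 17 after the start. Of 24 windows of mitotic genes 17 held it (70.8%), and of 11 windows of replication and nucleotide genes 3 did (27.3%), those of Cdc45, Mcm2 and Mcm7. A stringent set of E2F site letters (TTTCCCGC, TTTCGCGC, TTTGCCGC or TTTGGCGC, both strands) was found in the windows of 6 of 40 cell cycle genes (15.0%), namely Cdc6, Cdk1, Mcm3, Mcm5, Mcm6 and Mcm7, and in 2.32% of all windows. The pentamer CCAAT, known as the core of NF-Y sites, was on either strand of 29 of 40 windows (72.5%) and in 37.9% of all windows. None of these 3 letter sets overlapped another in the windows shown, and a match describes the sequence and does not show that a factor binds there.

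The comparison of LPS with medium asks whether a short LPS pulse changed these transcripts within the following hour. In wildtype cells 0 of the 46 genes passed at an adjusted p under 0.05 in limma, and 3 had an unadjusted p under 0.05 (Cenpa, Mki67 and Pcna). In that comparison 1.57% of all genes passed. In knockout cells 0 of 46 passed and 5 had an unadjusted p under 0.05 (Mki67, Cenpa, E2f1, Mcm6 and Pcna), while 5.91% of all genes passed. Shares of all genes are at the adjusted threshold here and below. The share of all genes at an unadjusted p under 0.05 was not taken. Counts at an unadjusted p, here and below, are therefore not read as more or fewer than among all genes. The median log2 difference of the 46 genes was 0.10 in wildtype cells, where 33 were positive, and -0.30 in knockout cells, where 38 were negative. The medians of all genes were -0.01 and -0.00. Both medians depended on single arrays. Without LPS-treated wildtype replicate 2 the wildtype median was -0.11. Without LPS-treated knockout replicate 1 the knockout median was 0.03, without LPS-treated knockout replicate 2 it was -0.66, and without untreated knockout replicate 2 it was -0.06. Without all 3 arrays numbered 2 it was -0.38. A factor for the arrays of low small nucleolar RNA gave -0.27 in wildtype and -0.65 in knockout cells, and one for the arrays with Y-linked signal gave -0.08 and -0.30.

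In knockout cells, where the correlations of residuals between arrays of the same number were 0.381, 0.299 and 0.196, each LPS array can be set against the untreated array of its number. Of the 46 genes, 23 were lower in all 3 pairs (25.8% of all genes) and 5 were higher in all 3 pairs (19.4% of all genes). These 5 were Cenpa, Mki67, Mcm3, Mcm4 and Pcna. With the replicate number as a block, 1 gene passed as higher in knockout cells, Mki67 (4.29% of all genes passed as higher), and 8 passed as lower (6.13% of all genes). The latter were Cdk1, Cdkn3, Ttk, Cenpk, Nuf2, Kif20a, Kif2c and Mcm6. In wildtype cells 1 of 46 passed with the block, again Mki67 as higher (2.18% of all genes), although the untreated wildtype arrays showed no pairing with the LPS arrays (-0.028, 0.0087 and -0.017). The block fit assumes that the untreated wildtype mean lies at the mean of the block levels, which was not tested. Block results that involve untreated wildtype cells, here and below, rest on this assumption. Without the arrays numbered 2, 4 genes passed in knockout cells, Mki67 as higher and Bub1, Mcm6 and Rrm1 as lower (3.46% of all genes passed). In wildtype cells 0 passed (1.3% of all genes). When the 12 arrays were entered as 12 samples, 1 gene passed in knockout cells, Mki67 (9.11% of all genes), and 2 in wildtype cells, Mki67 and Cenpa (8.64%). With the replicate block on these 12 samples the counts were 3 in knockout cells (11.4%) and 5 in wildtype cells (11%).

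**Figure D3:**
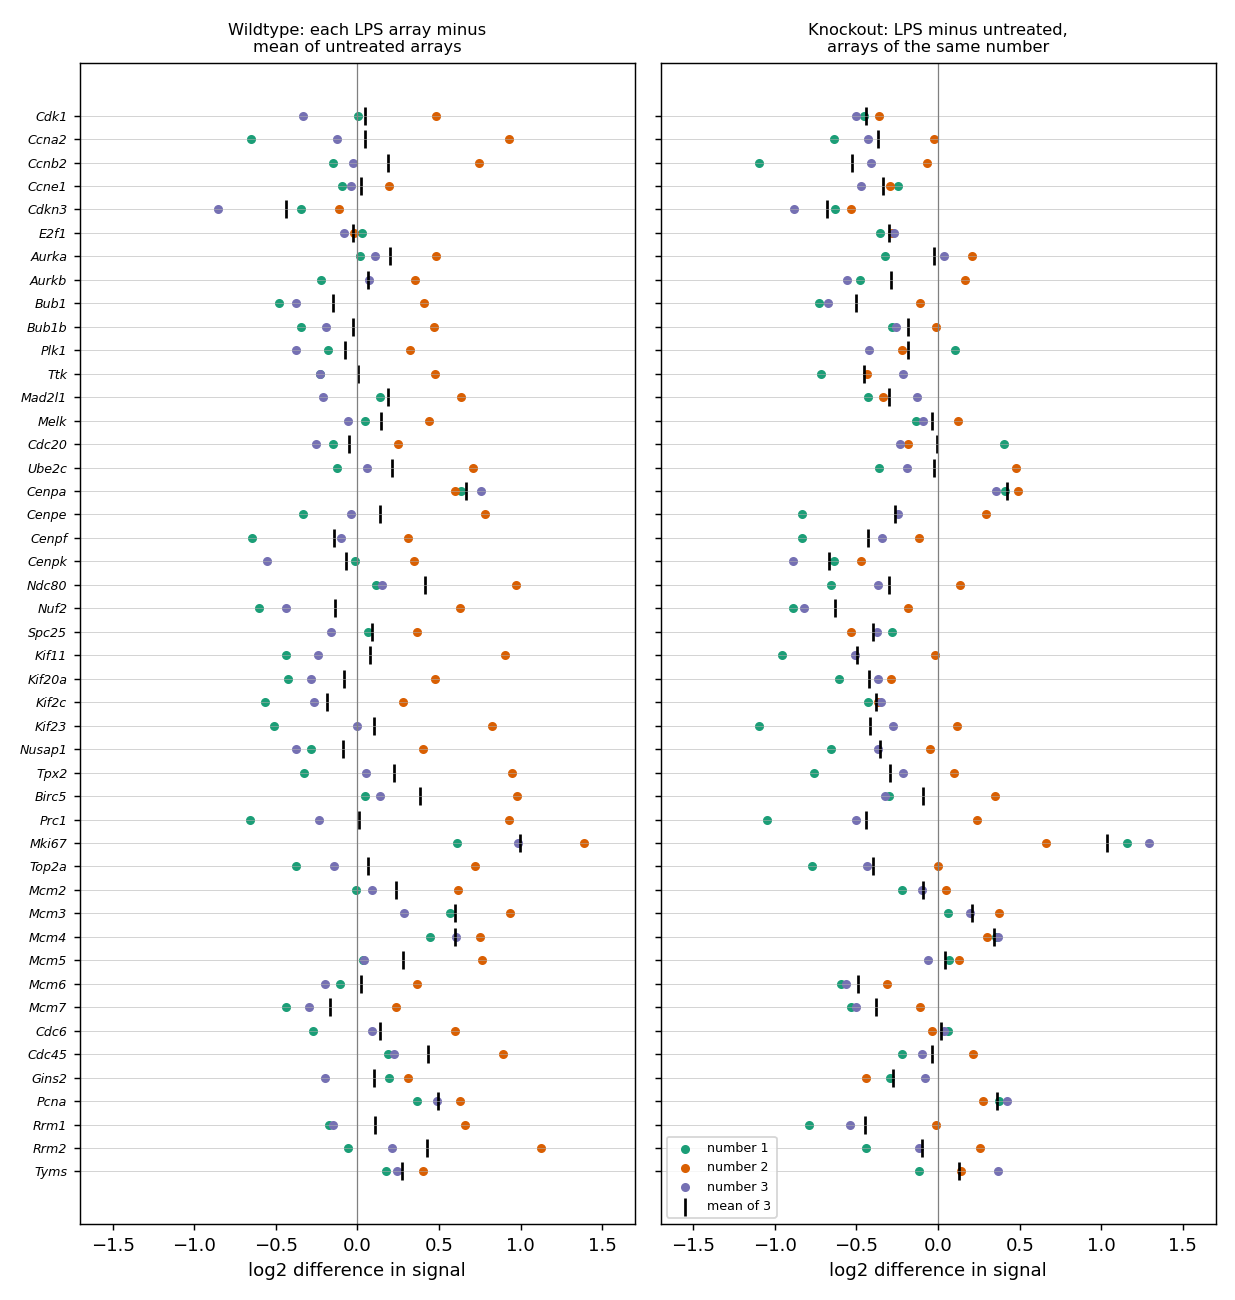
Log2 difference of each cell cycle gene after LPS, in wildtype cells as each LPS array minus the mean of the untreated arrays (left) and in knockout cells as LPS minus untreated arrays of the same number (right), with points coloured by replicate number and a bar at the mean of 3. In knockout cells 23 genes have all 3 points below 0 and 5 genes all 3 above it, and Mki67 has the highest mean in both panels (1.00 and 1.04).

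Mki67, which encodes the Ki-67 protein that coats mitotic chromosomes and marks cycling cells, had the largest mean difference after LPS in both genotypes. Its signal was 9.85, 10.97 and 10.02 on the untreated knockout arrays and 11.01, 11.63 and 11.31 after LPS. In wildtype cells it was 10.18, 10.23 and 9.99 on the untreated arrays and 10.74, 11.52 and 11.12 after LPS. Every LPS array of either genotype lay above every untreated array of that genotype, with untreated knockout replicate 2 just under the lowest LPS array of that genotype. The log2 difference was 1.04 in knockout cells (2.05-fold, SE 0.29, adjusted p = 0.0651 in limma) and 1.00 in wildtype cells (1.99-fold, SE 0.41, adjusted p = 0.428). With the replicate block the adjusted p in limma was 0.00152 (SE 0.13) in knockout cells and 0.0226 (SE 0.19) in wildtype cells. The wildtype values with the block depend on the assumed place of the untreated wildtype mean. The numbered pairs of knockout arrays differed by 1.16, 0.66 and 1.29. When the model included a factor that marks the 4 arrays with low small nucleolar RNA, the difference was 0.69 in knockout cells (adjusted p = 0.235) and 0.65 in wildtype cells (adjusted p = 0.736). Leaving out untreated knockout replicate 2 gave a difference of 1.38 in knockout cells (adjusted p = 0.0115).

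Top2a, the topoisomerase that untangles replicated chromosomes and shares its cell cycle timing with Mki67, had overlapping values with and without LPS. Its signal was 8.74, 9.87 and 8.92 in untreated and 7.97, 9.87 and 8.48 in LPS-treated knockout cells. It was 8.84, 8.91 and 8.94 in untreated and 8.51, 9.61 and 8.75 in LPS-treated wildtype cells. The values of LPS and untreated arrays overlapped in both genotypes, and replicate 2 stood above the others in 3 of the groups. The log2 difference was -0.40 in knockout cells (SE 0.46, adjusted p = 0.691) and 0.07 in wildtype cells (SE 0.66, adjusted p = 0.997).

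**Figure D4:**
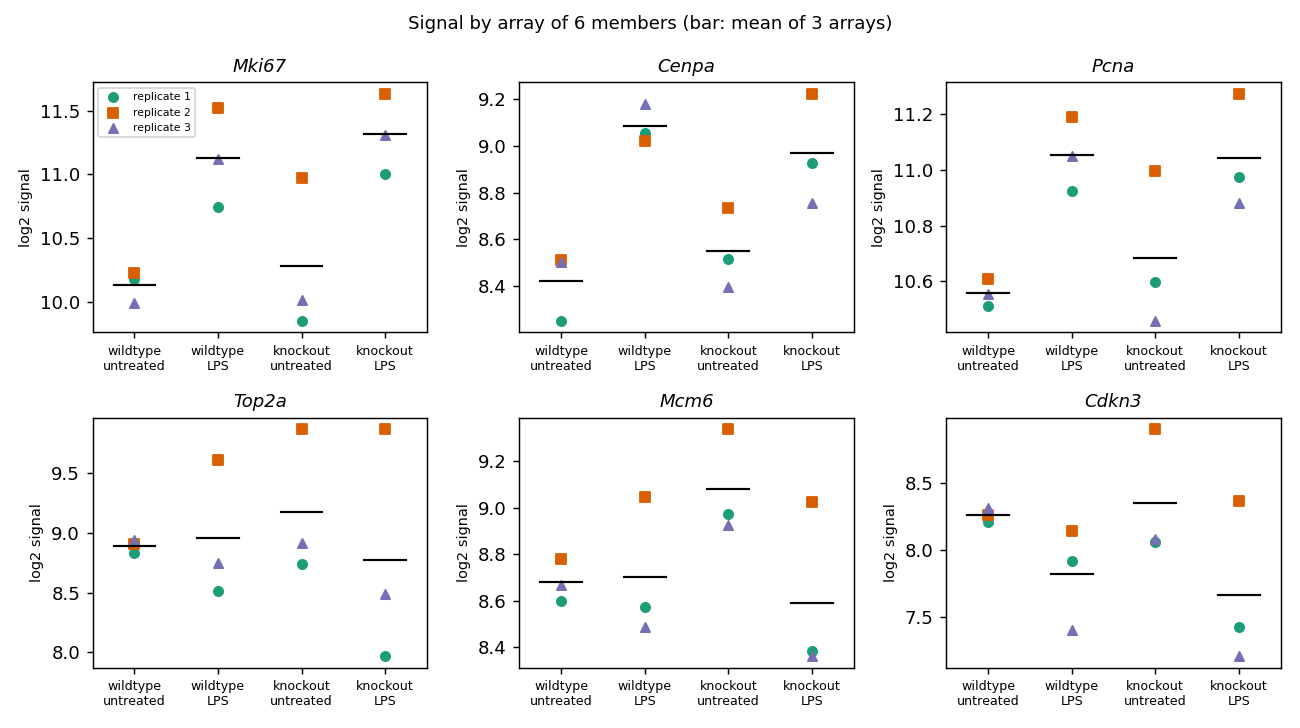
Log2 signal of Mki67, Cenpa, Pcna, Top2a, Mcm6 and Cdkn3 on each of the 12 arrays, with a marker for each replicate number and a bar at the mean of the 3 arrays of a group. For Mki67 the LPS arrays of each genotype lie above its untreated arrays (knockout 11.01 to 11.63 against 9.85 to 10.97), while for Top2a the groups overlap and replicate 2 is the highest array of the LPS and knockout groups.

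Among the cyclins and their partners, 0 of 6 genes passed in either genotype, with median differences after LPS of -0.40 in knockout and 0.04 in wildtype cells. Cdk1, the kinase that drives entry into mitosis, was at 7.76, 8.54 and 7.66 in untreated and 7.31, 8.18 and 7.15 in LPS-treated knockout cells. In wildtype cells Cdk1 was at 7.63, 7.87 and 7.67 without and 7.73, 8.21 and 7.39 with LPS. The groups overlapped, yet each LPS-treated knockout array was below the untreated array of its number, by 0.45, 0.36 and 0.51. The difference in knockout cells was -0.44 (SE 0.31, adjusted p = 0.477 in limma), with an adjusted p of 0.0313 under the replicate block.

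Cyclin A2 and cyclin B2 bind this kinase in S phase and mitosis. Ccna2 was at 7.96, 9.45 and 8.36 in untreated knockout, 7.32, 9.42 and 7.93 in LPS-treated knockout, 7.80, 9.39 and 8.33 in LPS-treated wildtype and 8.45, 8.46 and 8.46 in untreated wildtype cells. Its pooled SD of 0.895 was the third highest, and the limma F-test of the replicate numbers gave an adjusted p of 0.00837. Ccnb2 was at 8.19, 9.61 and 8.74 in untreated knockout, 7.10, 9.54 and 8.33 in LPS-treated knockout, 8.56, 9.46 and 8.69 in LPS-treated wildtype and 8.74, 8.78 and 8.63 in untreated wildtype cells. Replicate 2 of the LPS-treated knockout cells thus stood 1.79 above the mean of the other arrays of its group for Ccna2 and 1.83 for Ccnb2.

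Cyclin E1, which acts with Cdk2 at the start of S phase, had a pooled SD of 0.286. Ccne1 was at 7.67, 8.33 and 7.96 in untreated knockout, 7.42, 8.03 and 7.49 in LPS-treated knockout, 7.65, 7.93 and 7.70 in LPS-treated wildtype and 7.48, 7.86 and 7.88 in untreated wildtype cells. Cdkn3 encodes a phosphatase that acts on cyclin-dependent kinases. Cdkn3 was at 8.06, 8.90 and 8.08 in untreated and 7.43, 8.37 and 7.20 in LPS-treated knockout cells, and at 8.21, 8.26 and 8.31 in untreated and 7.91, 8.14 and 7.40 in LPS-treated wildtype cells. All 3 LPS-treated wildtype arrays lay below the untreated ones, which for lower values held for this gene alone of the 46 (13.9% of all genes). The difference was -0.68 in knockout cells (SE 0.32, adjusted p = 0.262 in limma, 0.0184 with the replicate block) and -0.44 in wildtype cells (SE 0.45, adjusted p = 0.920).

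E2f1, an activating E2F factor, had the lowest pooled SD of the 46 genes, 0.0925. Its signal was 7.41, 7.56 and 7.37 in untreated and 7.05, 7.27 and 7.11 in LPS-treated knockout cells. It was 7.52, 7.36 and 7.38 in untreated and 7.45, 7.39 and 7.34 in LPS-treated wildtype cells. The LPS-treated knockout arrays were below all untreated knockout arrays, for this gene alone of the 46 (14.8% of all genes), and below all LPS-treated wildtype arrays, again alone (4.96% of all genes). For 0 of the 46 genes were all LPS-treated knockout arrays above the wildtype ones (2.81% of all genes). The difference after LPS in knockout cells was -0.30 (SE 0.10, adjusted p = 0.129 in limma), and with the replicate block the adjusted p was 0.0851.

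The mitotic kinases and spindle checkpoint genes gave median differences after LPS of -0.24 in knockout and 0.04 in wildtype cells, and 0 of 8 passed in either. Aurkb, the kinase of the chromosomal passenger complex, was at 7.21, 8.04 and 7.55 in untreated knockout, 6.74, 8.20 and 7.0 in LPS-treated knockout, 7.40, 7.97 and 7.69 in LPS-treated wildtype and 7.64, 7.61 and 7.61 in untreated wildtype cells. Plk1, which acts at centrosomes and kinetochores, was at 7.22, 8.48 and 7.64 in untreated knockout, 7.32, 8.26 and 7.21 in LPS-treated knockout, 7.64, 8.14 and 7.44 in LPS-treated wildtype and 7.84, 7.90 and 7.71 in untreated wildtype cells. For both kinases replicate 2 was the highest array of the 3 groups and no pair of groups separated.

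Bub1 and Mad2l1 belong to the checkpoint that delays anaphase until chromosomes are attached. Bub1 was at 7.53, 8.59 and 7.69 in untreated knockout, 6.80, 8.49 and 7.02 in LPS-treated knockout, 7.34, 8.23 and 7.44 in LPS-treated wildtype and 7.77, 7.92 and 7.76 in untreated wildtype cells. Mad2l1 was at 8.02, 9.02 and 8.03 in untreated knockout, 7.59, 8.68 and 7.90 in LPS-treated knockout, 8.16, 8.66 and 7.81 in LPS-treated wildtype and 8.13, 7.97 and 7.95 in untreated wildtype cells. Ttk, the kinase also called Mps1 that starts checkpoint signalling, was at 7.24, 7.91 and 7.19 in untreated knockout, 6.53, 7.47 and 6.97 in LPS-treated knockout, 6.75, 7.46 and 6.76 in LPS-treated wildtype and 6.99, 6.85 and 7.11 in untreated wildtype cells. In knockout cells Ttk differed after LPS by -0.45 (SE 0.28, adjusted p = 0.401 in limma, 0.0382 with the replicate block) and Bub1 by -0.50 (SE 0.43, adjusted p = 0.565, 0.0675 with the block). Cdc20 and Ube2c, an activator and an E2 enzyme of the anaphase-promoting complex, differed in knockout cells by -0.00 (SE 0.22) and -0.03 (SE 0.36). Cdc20 was at 7.02, 7.91 and 7.48 in untreated and 7.42, 7.72 and 7.25 in LPS-treated knockout cells, and at 7.59, 7.59 and 7.61 in untreated and 7.45, 7.85 and 7.35 in LPS-treated wildtype cells. Ube2c was at 7.53, 8.25 and 7.78 in untreated and 7.17, 8.73 and 7.59 in LPS-treated knockout cells, and at 7.77, 7.64 and 7.66 in untreated and 7.57, 8.39 and 7.75 in LPS-treated wildtype cells. The highest array of Ube2c was replicate 2 of the LPS-treated knockout cells.

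Of the 7 kinetochore genes 0 passed after LPS, and Cenpa was the one whose LPS arrays lay above all untreated arrays in both genotypes. Cenpa, the histone H3 variant that marks centromeres, was at 8.52, 8.73 and 8.40 in untreated and 8.93, 9.22 and 8.76 in LPS-treated knockout cells. In wildtype cells it was at 8.25, 8.51 and 8.50 without and 9.06, 9.02 and 9.18 with LPS. Replicate 2 was the lowest LPS-treated wildtype array and the highest of both knockout groups. The difference was 0.66 in wildtype cells (1.58-fold, SE 0.20, adjusted p = 0.174 in limma, 0.100 with the replicate block) and 0.42 in knockout cells (1.34-fold, SE 0.14, adjusted p = 0.113, 0.0675 with the block). When the 3 untreated wildtype arrays were entered as 3 samples, the wildtype difference passed, with an adjusted p of 0.00758.

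Ndc80, Nuf2 and Spc25 form the complex that holds microtubules at the kinetochore. Ndc80 was at 8.50, 9.28 and 8.62 in untreated knockout, 7.85, 9.41 and 8.25 in LPS-treated knockout, 8.59, 9.45 and 8.63 in LPS-treated wildtype and 8.41, 8.65 and 8.37 in untreated wildtype cells. Nuf2 was at 7.91, 9.27 and 8.29 in untreated knockout, 7.02, 9.08 and 7.47 in LPS-treated knockout, 7.70, 8.93 and 7.87 in LPS-treated wildtype and 8.29, 8.33 and 8.29 in untreated wildtype cells. Both had replicate 2 as the highest array of 3 groups. Nuf2 differed by -0.63 after LPS in knockout cells (SE 0.52, adjusted p = 0.553 in limma, 0.0333 with the replicate block). Cenpk, a subunit of the inner kinetochore, was at 6.25, 7.44 and 6.56 in untreated and 5.61, 6.97 and 5.67 in LPS-treated knockout cells, a difference of -0.67 (SE 0.39, adjusted p = 0.381, 0.0479 with the block). On LPS-treated knockout replicates 1 and 3, Cenpk was below the median of unannotated probe sets (6.09 and 6.04). Its difference therefore rests on values under the background. Spc25 was at 6.95, 7.79 and 7.27 in untreated and 6.67, 7.26 and 6.89 in LPS-treated knockout cells, and at 7.18, 7.28 and 7.33 in untreated and 7.33, 7.63 and 7.10 in LPS-treated wildtype cells. Its pooled SD of 0.336 was below those of Ndc80 (0.600) and Nuf2 (0.839).

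The 8 genes of the spindle and of cytokinesis had the largest pooled SD of all roles with a median of 0.756, and 0 of 8 passed after LPS in either genotype. Kif11, the motor that pushes spindle poles apart, was at 7.92, 9.36 and 8.24 in untreated knockout, 6.97, 9.34 and 7.74 in LPS-treated knockout, 7.86, 9.21 and 8.06 in LPS-treated wildtype and 8.27, 8.36 and 8.28 in untreated wildtype cells. Prc1, which bundles microtubules in the middle of the dividing cell, was at 7.65, 8.86 and 8.11 in untreated knockout, 6.60, 9.10 and 7.60 in LPS-treated knockout, 7.45, 9.04 and 7.88 in LPS-treated wildtype and 8.06, 8.25 and 8.02 in untreated wildtype cells. Replicates 1 and 2 of the LPS-treated knockout cells were thus the extremes of all 12 arrays for both genes, apart from untreated knockout replicate 2, which was the highest for Kif11. Birc5, the survivin subunit of the passenger complex, was at 5.99, 7.23 and 6.39 in untreated knockout, 5.69, 7.57 and 6.06 in LPS-treated knockout, 6.36, 7.29 and 6.45 in LPS-treated wildtype and 6.39, 6.32 and 6.23 in untreated wildtype cells.

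Of the other motors, Kif20a acts in cytokinesis and Kif2c depolymerises microtubules at centromeres. Kif20a was at 7.73, 8.84 and 7.94 in untreated and 7.12, 8.55 and 7.57 in LPS-treated knockout cells, a difference of -0.42 (SE 0.38, adjusted p = 0.597 in limma, 0.0478 with the replicate block). Kif2c was at 7.15, 8.07 and 7.35 in untreated and 6.73, 7.70 and 6.99 in LPS-treated knockout cells, a difference of -0.38 (SE 0.30, adjusted p = 0.531, 0.0329 with the block). For both, every LPS-treated knockout array was below the untreated one of its number, by 0.61, 0.29 and 0.37 for Kif20a and by 0.43, 0.37 and 0.35 for Kif2c. In wildtype cells their differences were -0.08 and -0.18. Kif23, Nusap1 and Tpx2, which act in the midbody and in spindle assembly, differed in knockout cells by -0.42, -0.36 and -0.29, each with an SE of at least 0.36.

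The 10 replication genes gave median differences after LPS of -0.01 in knockout and 0.26 in wildtype cells, and 0 of 10 passed in either. Mcm2 to Mcm7 encode subunits of the ring-shaped replicative helicase. Mcm2 was at 7.57, 8.29 and 7.76 in untreated knockout, 7.35, 8.34 and 7.67 in LPS-treated knockout, 7.70, 8.33 and 7.80 in LPS-treated wildtype and 7.62, 7.75 and 7.75 in untreated wildtype cells. Mcm5 was at 7.69, 8.70 and 7.87 in untreated knockout, 7.76, 8.83 and 7.81 in LPS-treated knockout, 7.97, 8.70 and 7.98 in LPS-treated wildtype and 7.88, 7.99 and 7.93 in untreated wildtype cells. Mcm6 was at 8.97, 9.34 and 8.92 in untreated knockout, 8.38, 9.02 and 8.36 in LPS-treated knockout, 8.57, 9.04 and 8.49 in LPS-treated wildtype and 8.60, 8.78 and 8.67 in untreated wildtype cells. The differences of the subunits had both signs. In knockout cells Mcm6 differed by -0.49 (SE 0.21, adjusted p = 0.217 in limma, 0.0152 with the replicate block) and Mcm7 by -0.38 (SE 0.26, adjusted p = 0.466), while Mcm3 differed by 0.21 (SE 0.23, adjusted p = 0.668) and Mcm4 by 0.34 (SE 0.20, adjusted p = 0.389). Without LPS-treated knockout replicate 2, Mcm6 passed with a difference of -0.71 (adjusted p = 0.0471).

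In wildtype cells Mcm3 and Mcm4 each had all 3 LPS arrays above all untreated arrays, as had Cenpa, Mki67, Cdc45, Pcna and Tyms, 7 of 46 genes in all (16.2% of all genes). Mcm3 was at 8.08, 8.36 and 8.31 in untreated and 8.82, 9.19 and 8.54 in LPS-treated wildtype cells, a difference of 0.60 (SE 0.32, adjusted p = 0.644 in limma). Mcm4 was at 8.25, 8.55 and 8.53 in untreated and 8.89, 9.19 and 9.05 in LPS-treated wildtype cells, a difference of 0.60 (SE 0.29, adjusted p = 0.553). In knockout cells the LPS arrays were above all untreated arrays for 2 genes, Cenpa and Mki67 (10.3% of all genes).

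Pcna encodes the sliding clamp of DNA polymerases. Its signal was 10.60, 10.99 and 10.46 in untreated and 10.97, 11.27 and 10.88 in LPS-treated knockout cells. It was 10.51, 10.61 and 10.55 in untreated and 10.93, 11.19 and 11.05 in LPS-treated wildtype cells. The LPS arrays were above the untreated ones in wildtype cells and overlapped with them in knockout cells, where each numbered pair was higher after LPS by 0.38, 0.28 and 0.42. The difference was 0.50 in wildtype cells (SE 0.22, adjusted p = 0.497 in limma, 0.143 with the replicate block) and 0.36 in knockout cells (SE 0.16, adjusted p = 0.232, 0.0627 with the block). Cdc6, which loads the helicase at origins, was at 6.18, 7.33 and 6.35 in untreated knockout, 6.24, 7.29 and 6.39 in LPS-treated knockout, 6.36, 7.22 and 6.71 in LPS-treated wildtype and 6.55, 6.69 and 6.64 in untreated wildtype cells. Its difference in knockout cells was 0.02 (SE 0.35), and replicate 2 was its highest array in all 4 groups. Gins2, a subunit of the helicase's activating complex, was at 7.90, 8.30 and 7.85 in untreated knockout, 7.60, 7.85 and 7.77 in LPS-treated knockout, 8.02, 8.13 and 7.63 in LPS-treated wildtype and 7.82, 7.88 and 7.78 in untreated wildtype cells. Its pooled SD was 0.220, and its difference in knockout cells was -0.27 (SE 0.16, adjusted p = 0.381).

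Of the 3 genes of nucleotide supply, 0 passed. Rrm2, the regulated subunit of ribonucleotide reductase, was at 7.0, 8.09 and 6.93 in untreated knockout, 6.56, 8.35 and 6.81 in LPS-treated knockout, 7.03, 8.21 and 7.29 in LPS-treated wildtype and 7.10, 7.09 and 7.05 in untreated wildtype cells. A second, dimmer probe set of Rrm2 was at 3.96 to 5.05, below the median of unannotated probe sets on every array. On it replicate 2 was the highest array of untreated knockout cells (5.05 against 4.52 and 4.53) and of LPS-treated knockout cells (4.80 against 4.07 and 3.96), and in LPS-treated wildtype cells it was at 4.57 against 4.53 and 4.54. Tyms, thymidylate synthase, had a pooled SD of 0.164, the second lowest. It was at 8.42, 8.53 and 8.16 in untreated knockout, 8.31, 8.66 and 8.53 in LPS-treated knockout, 8.30, 8.52 and 8.36 in LPS-treated wildtype and 8.18, 7.98 and 8.20 in untreated wildtype cells. Its difference after LPS was 0.27 in wildtype cells (SE 0.19, adjusted p = 0.786 in limma) and 0.13 in knockout cells (SE 0.13, adjusted p = 0.644).

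Other genes of the pathway were taken from lists of regulators and machinery. Of 11 inhibitors of cyclin-dependent kinases and related antiproliferative genes, 2 rose after LPS in wildtype cells, Cdkn1a and Btg2, and 0 fell (1.57% of all genes passed). In knockout cells 4 rose, Cdkn1a, Btg2, Gadd45b and Gadd45g, and 2 fell, Cdkn1b and Cdkn2d (5.91% of all genes passed). The median differences of the 11 genes were 0.24 and -0.00. Cdkn1a, which encodes the inhibitor p21, was at 11.80, 12.24 and 11.90 in untreated and 12.81, 13.03 and 12.95 in LPS-treated knockout cells, and at 11.92, 11.94 and 11.93 in untreated and 12.88, 12.76 and 12.92 in LPS-treated wildtype cells. Its difference was 0.95 in knockout (SE 0.13, adjusted p = 0.00179 in limma) and 0.92 in wildtype cells (SE 0.18, adjusted p = 0.0369). Btg2, an antiproliferative gene of the BTG family, differed by 1.25 in knockout (SE 0.14, adjusted p = 0.000451) and 0.99 in wildtype cells (SE 0.19, adjusted p = 0.0342). Cdkn1b, which encodes the inhibitor p27, differed by -0.48 in knockout (SE 0.11, adjusted p = 0.0261 in limma) and -0.54 in wildtype cells (SE 0.15, adjusted p = 0.158). Gadd45b, Gadd45g and Cdkn2d differed by 0.61, 0.45 and -0.65 in knockout cells. In wildtype cells, where they did not pass, they differed by 0.50, 0.54 and -0.26. For 1 of these 11 genes, Cdkn2c, replicate 2 was the highest array of the 3 groups.

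Among 18 genes of the retinoblastoma, E2F and MuvB families, E2f8 passed as higher in both genotypes (1.57% of all genes passed in wildtype cells). In knockout cells Lin54 also passed as higher and Rbl1 as lower (5.91% of all genes passed). The list medians were 0.13 in wildtype and -0.04 in knockout cells. E2f8, a repressive E2F factor, was at 7.40, 8.19 and 7.75 in untreated and 8.91, 9.51 and 9.49 in LPS-treated knockout cells, and at 7.31, 7.44 and 7.49 in untreated and 8.89, 9.25 and 8.89 in LPS-treated wildtype cells. Its difference was 1.60 in wildtype (3.03-fold, SE 0.31, adjusted p = 0.0325 in limma) and 1.52 in knockout cells (2.87-fold, SE 0.22, adjusted p = 0.00245). Lin54, the DNA-binding subunit of MuvB, differed by 0.98 in knockout (SE 0.18, adjusted p = 0.00824 in limma) and 1.14 in wildtype cells (SE 0.25, adjusted p = 0.0514). Rbl1, which encodes the retinoblastoma relative p107, differed by -0.69 in knockout (SE 0.14, adjusted p = 0.0164) and -0.46 in wildtype cells (SE 0.20, adjusted p = 0.468). Of 33 further replication genes, 2 fell in knockout cells, Gmnn, the inhibitor of origin licensing (-0.89, SE 0.21, adjusted p = 0.0297), and Gins3 (-0.70, SE 0.13, adjusted p = 0.0111), a share near the 5.91% of all genes, and 0 passed in wildtype cells. Of 40 further mitotic genes and of 9 genes of G1 (cyclins, their kinases and regulators such as Myc), 0 passed in either genotype. The median differences in wildtype and knockout cells were 0.13 and -0.18 for replication, 0.11 and -0.14 for mitosis and 0.18 and -0.07 for G1. In the genotype comparisons and the interaction 0 genes of these lists passed.

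The spread by replicate number extended to the further mitotic genes. Replicate 2 was the highest array of the 3 groups for 38 of 40 of them (9.12% of all genes), and 29 of 40 passed the F-test of replicate numbers (1.71% of all genes). Of 33 further replication genes, 24 had replicate 2 as highest and 8 passed that test, and of 18 genes of the retinoblastoma, E2F and MuvB families, 12 had it and 2 passed, Lin9 and Foxm1. Of 9 genes of G1, 7 had replicate 2 as highest and 1 passed, Cdk6. The cell type markers gave 0 of 8 for neutrophils, 0 of 5 for monocytes, 1 of 9 for dendritic cells (Itgax), 1 of 9 for progenitors (Cd34) and 4 of 6 for macrophages with replicate 2 as highest. Markers of erythroid, lymphoid and mast cells gave 0. The macrophage genes were Adgre1, Lyz2, Mrc1 and Cd68, of which Mrc1 passed the F-test. Itgax, Cd34 and the mast cell marker Cpa3 also passed it. The mean signal of the 6 macrophage markers was 10.88, 11.19 and 10.96 in untreated knockout, 10.03, 10.89 and 10.39 in LPS-treated knockout, 10.53, 10.72 and 10.53 in LPS-treated wildtype and 11.05, 11.09 and 11.02 in untreated wildtype cells. The progenitor means ranged from 7.11 to 7.22 and from 7.07 to 7.30 in the knockout groups and from 6.94 to 7.45 in LPS-treated wildtype cells. The part of the cell makeup of the cultures in the spread of the cell cycle genes was not tested.

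**Figure D5:**
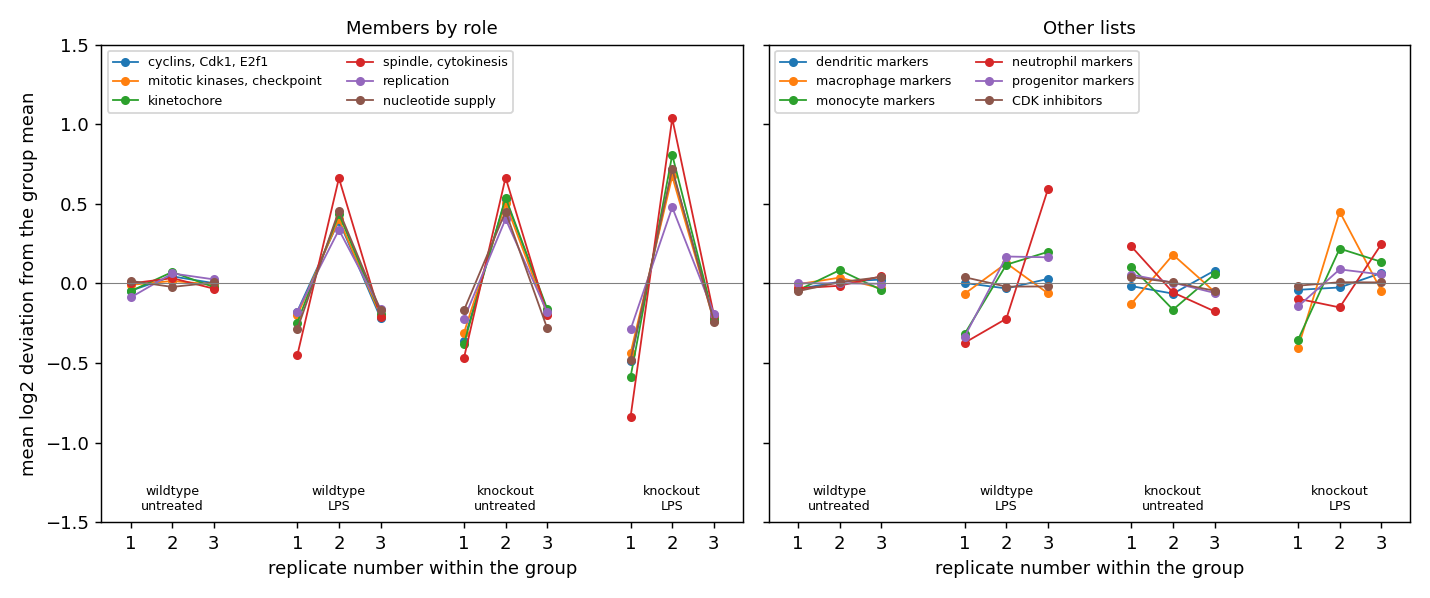
Mean deviation from the group mean (log2) on each array for 6 roles of cell cycle genes (left) and for 6 other gene lists (right), with replicate numbers within the 4 groups on the horizontal axis. The 6 roles peak together on replicate 2 of the 3 groups other than untreated wildtype, most of all the spindle and cytokinesis genes in LPS-treated knockout cells (1.04). Macrophage markers are also highest on replicate 2 of these groups, at 0.18, 0.45 and 0.13.

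Markers of other cells also moved with LPS. In knockout cells 6 of 8 neutrophil markers, 3 of 5 monocyte markers and 1 of 6 macrophage markers fell (5.91% of all genes passed). In wildtype cells 1 neutrophil marker, Camp, and 1 monocyte marker, Ccr2, fell (1.57% of all genes passed). The SEs were larger in wildtype cells because their untreated arrays were counted as 1 sample, and the differences were of similar size. The numbers of calls are therefore not like for like between the genotypes. S100a8 differed by -1.89 in wildtype (SE 0.45, adjusted p = 0.0759 in limma) and -1.49 in knockout cells (SE 0.32, adjusted p = 0.021). Chil3 differed by -1.36 (SE 0.30, adjusted p = 0.0519) and -1.48 (SE 0.21, adjusted p = 0.00231). Of 9 dendritic markers, Zbtb46 passed as higher in both genotypes. Irf4 passed as higher in knockout cells (0.58, adjusted p = 0.0119 in limma) and differed by 0.63 in wildtype cells (adjusted p = 0.0873). Markers of progenitors, erythroid cells, lymphoid cells and mast cells gave 0 calls in either genotype. For lists of 2 to 9 measured genes this is near the shares of all genes. All 6 genes chosen to check the LPS response, among them Tnf and Ptgs2, rose in both genotypes. The mean signal of the 8 neutrophil markers was 9.28 to 9.69 in untreated and 8.13 to 8.53 in LPS-treated knockout cells, and 9.65 to 9.73 in untreated and 7.91 to 8.87 in LPS-treated wildtype cells. That of the 5 monocyte markers was 9.65 to 9.92 in untreated and 8.27 to 8.85 in LPS-treated knockout cells. In wildtype cells it was 9.94 to 10.06 without and 8.50 to 9.01 with LPS. The part of these cells in the differences of the cell cycle genes after LPS was not tested.

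The comparison of the genotypes asks whether loss of Arc changed these transcripts. Without LPS, 0 of the 46 genes passed in limma and 0 had an unadjusted p under 0.05 (0.00451% of all genes passed). After LPS 0 passed and 1 had an unadjusted p under 0.05, E2f1 (0.00902% of all genes passed). Over both treatments 0 passed and 0 had an unadjusted p under 0.05 (0.0135% of all genes passed). With the replicate block the counts of cell cycle genes were again 0 without LPS (0.0135% of all genes), after LPS (0.018%) and over both treatments (0.0135%).

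Without LPS 41 of the 46 genes had a higher mean in knockout cells, with a median difference of 0.17 (0.02 for all genes), and after LPS 42 had a lower one, with a median of -0.18 (-0.02 for all genes). Both medians changed sign when single arrays were left out. Without untreated knockout replicate 2 the untreated median was -0.11. After LPS it was 0.06 without wildtype replicate 2 and 0.08 without knockout replicate 1, and -0.33 without the 3 arrays numbered 2. For 4 genes all untreated knockout arrays were above all untreated wildtype arrays, Ttk, Melk, Mcm3 and Mcm6 (17.7% of all genes), and for 0 they were below (11.6% of all genes). The genes with the smallest p without LPS were Mcm6 (0.40, SE 0.29), Tyms (0.25, SE 0.19) and Ttk (0.46, SE 0.39), each with an adjusted p of 0.970. After LPS they were E2f1 (-0.25, SE 0.10), Spc25 (-0.42, SE 0.22) and Gins2 (-0.18, SE 0.16), each with an adjusted p of 0.999. Over both treatments they were Tyms (0.18, SE 0.12), E2f1 (-0.11, SE 0.09) and Ttk (0.23, SE 0.24), each with an adjusted p of 1. Of the numbered pairs of LPS arrays, knockout minus wildtype, 8 genes were lower in all 3 (15.6% of all genes) and 2 were higher in all 3, Mki67 and Tyms (10.3% of all genes).

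The interaction, the LPS difference in knockout minus that in wildtype cells, passed for 0 of 46 genes, with 0 at an unadjusted p under 0.05 in limma, and for 0 of all genes (0%). With the replicate block 0 passed (0.0406% of all genes). The interaction was negative for 44 of 46 genes, with a median of -0.36 (-0.06 for all genes), and Mki67 (0.04, SE 0.50) and Cdc20 (0.05) were the exceptions. The smallest p values were those of E2f1 (-0.28, SE 0.18), Mcm6 (-0.51, SE 0.36) and Gins2 (-0.38, SE 0.28), each with an adjusted p of 0.948. The different signs of the LPS medians in the 2 genotypes are therefore not shown to differ. The 95% interval of a log2 difference after LPS extended, at the median over all genes, by 0.42 to each side in wildtype and 0.30 in knockout cells, and for the cell cycle genes it was wider where replicate 2 stood far from the rest, as for Kif11 in knockout cells, from -1.76 to 0.77.

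Genes outside the list were ranked by how closely their deviations from the group mean followed the mean deviation of the cell cycle genes over the 9 arrays of the 3 groups. The 6 most alike were Ect2, which acts in cytokinesis (Pearson r = 0.996), Cip2a, an inhibitor of protein phosphatase 2A (0.995), Galnt3, a glycosyltransferase (0.994), Rpn1, a subunit of the oligosaccharyltransferase (0.994), Hmmr, a spindle protein (0.994), and Elmo2, a regulator of Rac (0.994). These correlations describe 9 arrays, of which the 3 numbered 2 stand apart, and 834 of 22134 genes outside the list exceeded 0.9. Ect2 was at 8.39, 9.62 and 8.61 in untreated knockout, 7.72, 9.76 and 8.37 in LPS-treated knockout, 8.48, 9.70 and 8.64 in LPS-treated wildtype and 8.51, 8.69 and 8.51 in untreated wildtype cells. The pooled SD was 0.806 for Ect2 and 0.194 for Elmo2. Of the 46 cell cycle genes, 38 exceeded 0.9 with the mean of the other 45.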

How the data were processed

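Total RNA of 12 BMDC samples was hybridised to Affymetrix whole-transcript arrays. The values used are log2 signals that the authors had normalized before they deposited them. The background correction and normalization behind them are not stated in the labels or the table, and the submitters' processing notes name limma without a version. Of 34390 probe sets, 23521 had 1 gene symbol in the platform annotation, 1814 several and 9055 none. Where several probe sets carried 1 symbol (1082 genes), the one with the highest mean stood for it, which gave 22180 genes. The number of arrays limits the precision. Since the labels do not say that cultures came from separate animals, p-values measure only the spread between these cultures, which may be technical.

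The test was limma 3.58.1 in R 4.3.3 (group means, eBayes, two-sided, 6 contrasts), with Benjamini-Hochberg adjustment over all genes and a threshold of 0.05. The near-identical untreated wildtype arrays entered as their mean, which left 10 samples and 6 residual degrees of freedom and assumes that this sample varies like the others. Residuals of arrays with the same number correlated at 0.196 to 0.381 between the knockout groups, 0.228 to 0.358 between the LPS groups and 0.145 to 0.196 between untreated knockout and LPS-treated wildtype arrays. Correlations between unlike numbers were not computed. It is therefore not shown that arrays of the same number form pairs across the genotypes. With untreated wildtype arrays the correlations were -0.053 to 0.113. The replicate block therefore covered the other 9 arrays, with the untreated wildtype mean placed at the mean of the block levels (4 residual degrees of freedom). That placement is an assumption, on which the block SEs and p-values of comparisons with untreated wildtype cells rest. In all, 25 other settings were run, of which 2 were added after seeing the data (this block and the omission of the arrays numbered 2).

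The genes and lists were chosen with earlier results of these data known. Values on every array are given for preset examples of each role, the 3 genes with the smallest p per contrast, genes past the threshold, and the highest and lowest pooled SD. For other lists, up to 4 genes past the threshold per contrast were named by p, and other genes named were chosen after their values were seen. The code was tested on simulated data.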

Additional observations from a re-analysis of the deposited data

How the results depend on the processing

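The count of cell cycle genes past the threshold was 0 in every setting run for the genotype comparisons and the interaction. After LPS the counts did move. In wildtype cells (0 with 10 samples) it was 2 with 12 arrays as 12 samples, 5 with the replicate block on 12 samples, 1 with the replicate block on 10 samples and 4 with array weights, where 1917, 2437, 665 and 2297 of all genes passed, against 349. In knockout cells (0 with 10 samples) it was 1 with 12 samples, 3 with the replicate block on 12 samples, 9 with the replicate block on 10 samples, 5 with array weights, 1 among genes above the median signal and 4 without the 3 arrays numbered 2, where 2021, 2539, 2312, 4698, 1679 and 768 of all genes passed, against 1311. Leaving out 1 array gave 0 to 1 in knockout cells, with 1 without untreated knockout replicate 2 (Mki67) and 1 without LPS-treated knockout replicate 2 (Mcm6), and 0 in wildtype cells. The estimate of array weights did not converge. The median pooled SD was 0.179 without the arrays numbered 2. The cause of each move was not tested. The medians of the 46 genes changed sign in several settings, except for the interaction. The LPS median ranged from -0.27 to 0.27 in wildtype and from -0.66 to 0.03 in knockout cells, the genotype median from -0.11 to 0.34 without LPS, from -0.52 to 0.08 after LPS and from -0.21 to 0.14 over both treatments. The interaction median stayed negative, from -0.70 to -0.07. Cenpa after LPS in wildtype cells and the 9 genes named for knockout cells with the replicate block kept their sign, as did Mki67 in both genotypes.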
